A study of Mus musculus with 31 samples.

Results

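The Ugt1a cluster was followed through its 8 rows in a gene table from alveolar macrophages (AM): Ugt1a1, Ugt1a2, Ugt1a5, Ugt1a6a, Ugt1a6b, Ugt1a8, Ugt1a9 and Ugt1a10. The rows were chosen by symbol and by presence in the table, which holds 13521 genes, and all 8 symbols were found. Presence is itself a readout, since every gene in the table reached at least 20 counts in some library. RAGE, the receptor for advanced glycation end-products, is encoded by Ager, and the null animals came from a colony with a homozygous null mutation on a C57BL/6 background, while wild-type (WT) animals were C57BL/6 mice bred apart from them in the same facility. Male young adult mice breathed cigarette smoke (CS) or room air (control) for 7 days or 4 months, and RNA from lavaged AM was sequenced as oligo dT libraries. The groups at 7 days were WT control (n = 3), WT with CS (n = 4), RAGE null control (n = 4) and RAGE null with CS (n = 4), and each of the same 4 groups held 4 libraries at 4 months, 31 in all. Totals ran from 11666879 to 34492288 counts per library, and levels are in CPM, which scales each count to the total of its library.

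UDP-glucuronosyltransferases sit in the endoplasmic reticulum and attach glucuronic acid to small lipophilic molecules, which can then be exported and cleared. The Ugt1a cluster makes many enzymes from few exons: each has its own promoter and first exon, which encodes the part that binds the acceptor molecule, and all splice onto the same downstream exons, which encode the part that binds the sugar donor. Ugt1a1 is the bilirubin conjugating enzyme, and the Ugt1a6 enzymes favour small phenols. In liver the cluster is a known target of the aryl hydrocarbon receptor and of NRF2, which answer to compounds also present in smoke.

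The sequences at the splice of exon 1 to exon 2 show what the table could and could not tell apart, and are printed 5′ to 3′ with the end of each private first exon in lower case and the start of the shared exon 2 in capitals (GENCODE M21 transcripts, GRCm38, plus strand, the exon 2 part at chr1:88215044-88215063).
Ugt1a10: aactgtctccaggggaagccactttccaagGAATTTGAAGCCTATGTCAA
Ugt1a9: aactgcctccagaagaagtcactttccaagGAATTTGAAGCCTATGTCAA
Ugt1a8: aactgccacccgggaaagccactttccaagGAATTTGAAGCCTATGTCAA
Ugt1a7c: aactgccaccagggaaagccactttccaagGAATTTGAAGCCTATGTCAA
Ugt1a6b: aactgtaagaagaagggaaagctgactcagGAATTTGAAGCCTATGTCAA
Ugt1a6a: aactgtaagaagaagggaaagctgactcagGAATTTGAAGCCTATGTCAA
Ugt1a5: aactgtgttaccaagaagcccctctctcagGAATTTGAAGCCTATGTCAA
Ugt1a2: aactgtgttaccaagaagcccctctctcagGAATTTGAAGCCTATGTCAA
Ugt1a1: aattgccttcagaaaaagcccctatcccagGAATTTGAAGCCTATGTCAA
The genes are listed in their order along the chromosome, from the Ugt1a10 first exon at chr1:88055388-88056336 to that of Ugt1a1 at chr1:88211959-88212871. Ugt1a7c is in the table but was not among the 8 symbols, and is given because it uses the same exons.

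Every model shared 4 exons, chr1:88215044-88215175, chr1:88215795-88215882, chr1:88216138-88216357 and chr1:88218127-88218997, together 1311 bases that hold the rest of the coding sequence and the 3′ end. The first exons were unequally private. Those of Ugt1a6a and Ugt1a6b were 94.9% identical, and 47.4% of the 50-base windows of the Ugt1a6a first exon, a window being as long as a sequenced read, occurred letter for letter in another first exon of the cluster. For Ugt1a8 (chr1:88087813-88088721), whose nearest relative was Ugt1a7c at 82.3% identity, that share was 1.4%. It was 6.63% for Ugt1a9 (chr1:88070800-88071678) and 0% for Ugt1a1. Gm20528, on the opposite strand, shares 394 bases with the shared exons, and in unstranded libraries its reads cannot be told apart from theirs. Reads with more than 1 genomic location had been removed before counting, so the first-exon counts of Ugt1a6a and Ugt1a6b are uncertain.

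The 8 rows proved to hold nearly the same reads. The counts common to them, taken as the lowest member count in each library, made up 99.5% of the summed member counts, and between 96.7% and 98.9% of the highest member row in each library. Across the 28 pairs of rows the largest difference was 3.34%, and the correlation of counts over the 31 libraries was at least 0.9996. Ugt1a2 matched the lowest row in 28 libraries. A value for Ugt1a2 or Ugt1a1 in this table is therefore a value for the shared exons and says little about that gene, and the 8 rows count as 1 measurement.

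What a row held beyond the common reads came from bases outside the shared exons and is called row-specific here. Summed over the 31 libraries, the row-specific reads were 1487 counts for Ugt1a6a, 1238 for Ugt1a8 and 443 for Ugt1a9. Ugt1a6b had 144, Ugt1a1 had 63, Ugt1a10 had 50, Ugt1a5 had 10 and Ugt1a2 had 4. Ugt1a7c stood well above all of these, with 32323 counts and between 458 and 2377 in each library. The Ugt1a7c model ends 1005 bases beyond the shared last exon, at the same base as the Ugt1a6a model. Reads in that extension would count in both rows where the Ugt1a6a model covers it. Whether it covers the whole extension was not determined, so where the Ugt1a7c reads lie is not settled. The row-specific reads of Ugt1a6a, 26 to 120 counts in a library, were far fewer than those of Ugt1a7c. The Ugt1a6a model in the table spans 5864 bases of exon against 4312 in GENCODE M21, and where its extra bases lie is not known. How evenly reads covered the transcripts was not analysed here, and row-specific reads are compared between libraries, not between genes.

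Before any group is compared, the libraries need to be seen one by one, because they did not follow their groups at 7 days. Row-specific Ugt1a8 reads were either plain or nearly absent: 17 libraries held 19 to 166 counts and the other 14 held 0 to 4. In those 17 libraries the common reads lay between 167 and 289 CPM, and in the other 14 between 103 and 149 CPM, without overlap. Row-specific Ugt1a9 reads split the same libraries, with 10 to 53 counts against 0 to 1. So did Gm15372, a pseudogene inside the cluster at chr1:88126776-88127609, with 3 to 32 counts against 0 to 1. The sets were read off these values, so no mean or test between them is given.

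At 4 months the split ran along genotype, with all 8 RAGE null libraries in the high set and all 8 WT libraries in the low set. At 7 days it ran through the groups. WT control replicate 1 was high and replicates 0 and 2 were low. Of the WT libraries with CS, replicates 0 and 3 were high and 1 and 2 low. All 4 RAGE null controls were high, while RAGE null with CS had replicates 0 and 1 high and 2 and 3 low. H2-T10, a class I histocompatibility gene, is shown because it separates the labelled genotypes in these data. Chosen in that way, it cannot serve as a check on the labels. It was at 6.34, 5.24 and 6.06 CPM in the 3 high WT libraries of 7 days and at 20.1 CPM in both low RAGE null libraries. The 7-day libraries as a whole had 3.08 to 6.34 CPM in WT and 20 to 23.1 CPM in RAGE null mice. RAGE null control replicate 2 at 4 months was apart, with 9.78 CPM of H2-T10 where the other RAGE null libraries of that time had 19.4 to 23.1 CPM. Ager itself was low throughout and was not lower in RAGE null libraries as a whole. At 7 days the genotypes overlapped, with 4.17 to 7.37 CPM in WT and 3.83 to 5.44 CPM in RAGE null libraries. At 4 months Ager was higher in all 8 RAGE null libraries (2.73 to 4.2 CPM) than in all 8 WT libraries (0.671 to 2.53 CPM), against the direction of the labels. Whether these reads lie in the part of Ager that was altered was not analysed here, and the genotypes are those of the labels throughout.

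**Figure D1:**
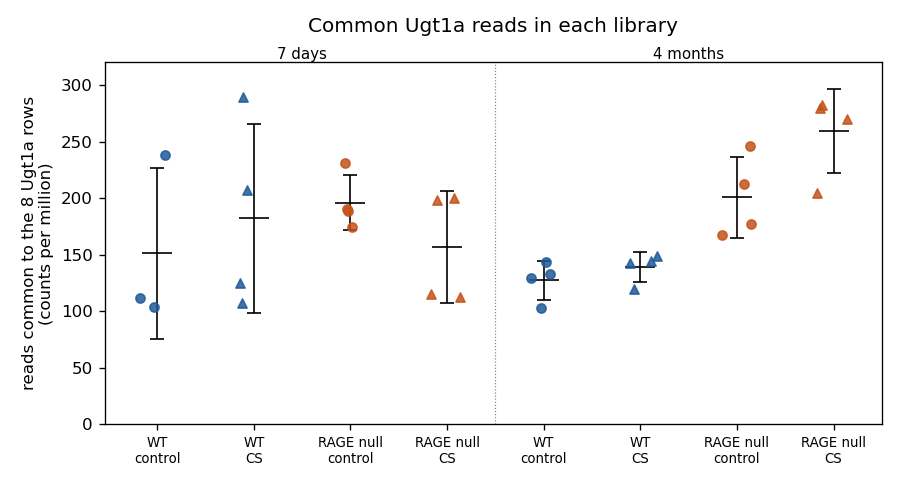
Reads common to the 8 Ugt1a rows, in CPM of the library total, in each library (circles, control; triangles, CS; blue, WT; orange, RAGE null) with group mean and SD in black. At 7 days WT control, WT with CS and RAGE null with CS each hold libraries at 103 to 125 CPM and at 198 to 289 CPM, whereas at 4 months every WT library (103 to 149 CPM) lies below every RAGE null library (167 to 283 CPM).

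Levels are given for the Ugt1a6a row, which had the highest mean count of the 8, in CPM scaled by the trimmed mean of M-values (TMM). At 7 days WT controls had 99.61, 227.9 and 108.3 CPM and WT mice with CS had 201.5, 106.6, 125.9 and 290 CPM. RAGE null controls had 219.1, 188.8, 167.2 and 188.9 CPM, and RAGE null mice with CS had 198.6, 195.9, 108 and 113 CPM. All 4 groups overlapped. At 4 months WT controls had 136.6, 107, 149 and 133.5 CPM, and WT mice with CS had 154.4, 157.3, 163.6 and 127 CPM. RAGE null controls had 222.5, 256, 181.4 and 173.1 CPM, and RAGE null mice with CS had 218.4, 300.1, 289.4 and 300.4 CPM, so that neither exposure brought the genotypes to overlap.

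Ordered by mean, the Ugt1a6a row rose from WT control at 4 months (132 ± 17.7 CPM, SD, n = 4) through WT control at 7 days (145 ± 71.7, n = 3), WT with CS at 4 months (151 ± 16.2, n = 4), RAGE null with CS at 7 days (154 ± 50.1, n = 4), WT with CS at 7 days (181 ± 83.4, n = 4), RAGE null control at 7 days (191 ± 21.4, n = 4) and RAGE null control at 4 months (208 ± 38.5, n = 4) to RAGE null with CS at 4 months (277 ± 39.4, n = 4). Every pair of neighbours in that order overlapped in its libraries. The SD of the WT groups was larger at 7 days (71.7 and 83.4 CPM) than at 4 months (17.7 and 16.2 CPM), and at 7 days both WT groups held libraries of the high and of the low set. Levels of the 2 time points were not tested against each other.

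At 7 days no member was called in any comparison. In WT mice the 8 rows differed by 0.31 to 0.33 on the log2 scale (CS minus control; adjusted p = 0.574 to 0.591, edgeR quasi-likelihood test with Benjamini-Hochberg adjustment over 13220 genes), and in RAGE null mice by -0.32 to -0.31 (adjusted p = 0.655 to 0.658). Across all genes 2.26% and 0.439% were called in these comparisons, a call being an adjusted p under 0.05 with a change of at least 1.5-fold. WT controls differed from RAGE null controls by -0.41 to -0.39 (adjusted p = 0.465 to 0.486, with 4.78% of genes called), and after CS by 0.24 (adjusted p = 0.743 to 0.749, with 2.20% called). The CS response was 0.62 to 0.65 higher in WT than in RAGE null mice (adjusted p = 0.515 to 0.528, with 0.00% called). The direction in WT mice rested on WT replicate 3 with CS: without it the Ugt1a6a row differed by -0.01 between CS and control, and by -0.09 between WT and RAGE null mice after CS.

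At 4 months WT AM held fewer Ugt1a reads than RAGE null AM, with and without CS. In controls all 8 rows were called lower in WT, by -0.70 to -0.66 (WT minus RAGE null, log2; adjusted p = 0.00417 to 0.00533), where 6.97% of 13045 genes tested were called, 3.53% lower and 3.43% higher, and the median of all genes was -0.004. After CS all 8 were again called lower, by -0.92 to -0.88 (adjusted p = 0.000618 to 0.000805, with 4.94% of genes called, 1.96% lower and 2.97% higher). These 8 calls are 1 result, since the rows share their reads: with the rows replaced by their common reads and their row-specific reads and all genes refitted, the common reads differed by -0.66 (SE 0.14, adjusted p = 0.00533) in controls and by -0.88 (SE 0.14, adjusted p = 0.000790) after CS. In controls the call was lost without WT replicate 1 (-0.57, adjusted p = 0.0171) or without RAGE null replicate 1 (-0.55, adjusted p = 0.0172), both under the 1.5-fold limit of 0.58 on the log2 scale. At 4 months the genotypes coincided fully with the high and low sets, which at 7 days ran through the groups. These tests therefore cannot tell the RAGE genotype from whatever else set the libraries apart. In bulk RNA of lavaged cells, fewer cells that express a gene and less RNA per cell cannot be told apart.

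No member was called with 4 months of CS. In WT mice the rows differed by 0.19 (CS minus control; adjusted p = 0.383 to 0.388, with 5.67% of genes called). In RAGE null mice the difference was 0.41 to 0.42 with adjusted p = 0.0423 to 0.0454, past the p threshold but under 1.5-fold, and was not called (7.27% of genes called). The difference of the 2 responses was -0.22 to -0.21 (adjusted p = 0.678 to 0.687, with 0.0383% called). Set against the 7-day response, the response at 4 months differed by -0.13 to -0.12 in WT mice (adjusted p = 0.892 to 0.904, with 0.783% called) and by 0.72 to 0.74 in RAGE null mice (adjusted p = 0.280 to 0.285, with 1.86% called).

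**Figure D2:**
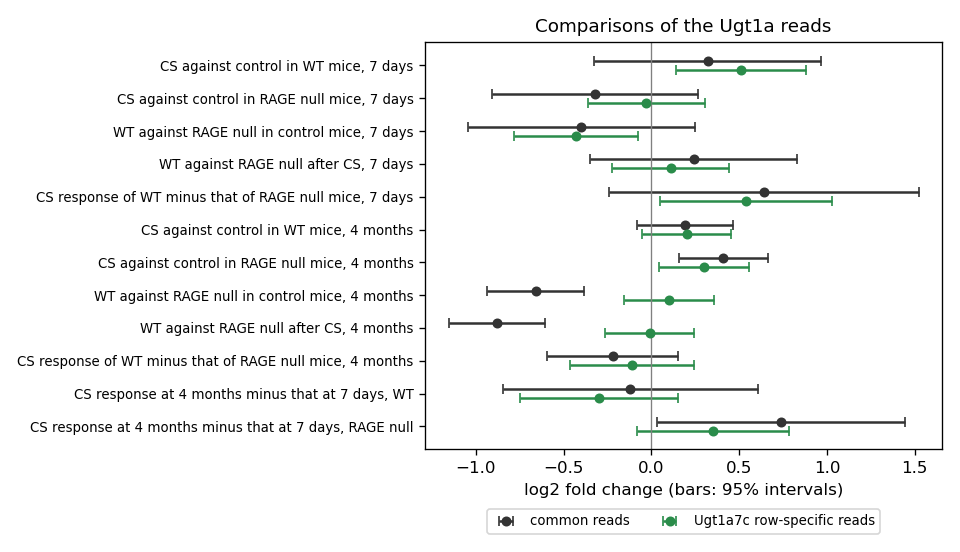
Log2 fold changes of the reads common to the 8 Ugt1a rows (black) and of the row-specific Ugt1a7c reads (green) in the 12 comparisons. Bars are 95% intervals by the normal approximation. They are narrower than the quasi-likelihood test allows, and calls rest on that test and not on the bars. Both WT against RAGE null comparisons at 4 months lie left of 0 for the common reads (-0.66 and -0.88) and close to 0 for Ugt1a7c (0.10 and -0.01).

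Row-specific reads of Ugt1a8 were near absent in WT libraries at 4 months. WT controls held 0, 4, 0 and 0 counts and RAGE null controls 85, 97, 81 and 53. After CS WT libraries held 1, 2, 0 and 2 counts and RAGE null libraries 92, 166, 144 and 149. Every RAGE null library was above every WT library. Summed over libraries, this was 316 counts in RAGE null controls against 4 in WT controls, a ratio per library total of 99.1 (95% counting interval 38.3 to 366), and 551 counts against 5 after CS, a ratio of 113 (48 to 348). These intervals cover counting error only.

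At 4 months row-specific Ugt1a9 reads were split by genotype as well. They were 0 in all 4 WT controls and 34, 28, 18 and 22 in RAGE null controls. With a floor of 3 counts put in for the WT group the ratio was 42.7, with a lower counting limit of 34.1. After CS WT libraries held 0, 1, 0 and 0 and RAGE null libraries 29, 53, 52 and 35 counts, a ratio of 173 on 1 WT count, with a lower counting limit of 30.6. Gm15372, counted on its own bases, was at 0 in all 8 WT libraries at 4 months and at 15 to 32 counts in the 8 RAGE null libraries. Row-specific Ugt1a6a reads were present in every library, between 26 and 120 counts. At 4 months they differed by -0.62 in controls (SE 0.25, adjusted p = 0.0900, not called) and by -0.84 after CS (SE 0.25, adjusted p = 0.0384, called), and the call after CS held in 9 of the 16 fits that left out 1 library and was lost with the replicate number as a block (-0.85, adjusted p = 0.0587).

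Row-specific Ugt1a7c reads were not called between the genotypes. At 4 months they differed by 0.10 in controls (SE 0.13, adjusted p = 0.60) and by -0.01 after CS (SE 0.13, adjusted p = 0.989). As a share of the common reads they were 63.3% ± 3.04 (SD, n = 4) in WT controls and 37.8% ± 5.54 (n = 4) in RAGE null controls, and 63.6% ± 2.75 against 34.4% ± 2.11 after CS. No library overlapped between the genotypes in either pair. The exact permutation test gave p = 0.0286 in each (two-sided, n = 4 and 4), the smallest p that 4 against 4 allows, and 0.0915 after adjustment over the 16 such comparisons made for Ugt1a7c and Ugt1a8. At 7 days the group means lay between 22% and 28.2% and every pair of groups overlapped. The share was measured after its values had been seen. Its denominator is the common reads, whose difference at 4 months is tested above, so its p is no separate evidence.

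**Figure D3:**
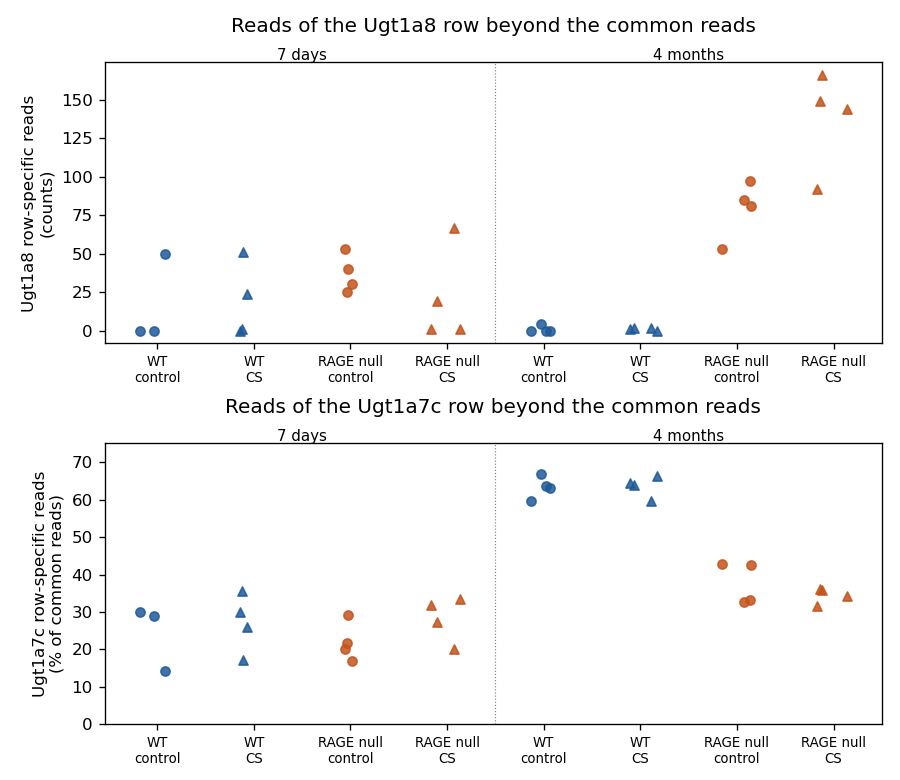
Upper panel, reads of the Ugt1a8 row beyond the common reads (counts per library); lower panel, reads of the Ugt1a7c row beyond the common reads as a percentage of them (circles, control; triangles, CS; blue, WT; orange, RAGE null). Ugt1a8 holds 0 to 4 counts in 14 libraries and 19 to 166 in 17, and at 4 months the Ugt1a7c share is 59.5% to 66.9% in WT and 31.5% to 42.7% in RAGE null libraries.

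The promoter of Ugt1a8, whose own reads split the libraries, is shown because 1 of the motifs searched was found in it (RefSeq, GRCm38.p6, chr1:88087578-88087877, plus strand, 250 bases before to 50 after the gene start), with the match in capitals.
Ugt1a8 promoter: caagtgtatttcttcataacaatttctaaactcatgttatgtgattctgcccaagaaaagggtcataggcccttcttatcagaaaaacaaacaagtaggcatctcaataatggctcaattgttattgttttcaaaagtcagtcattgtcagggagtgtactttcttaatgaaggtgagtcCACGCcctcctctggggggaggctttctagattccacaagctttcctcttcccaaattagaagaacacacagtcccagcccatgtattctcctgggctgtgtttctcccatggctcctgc
The letters GCGTG, the core of the site bound by the aryl hydrocarbon receptor with its partner, were searched on both strands in the promoters of Ugt1a7c and of 7 of the members. They occurred in those of Ugt1a8 and Ugt1a5, and in 32.4% of the 32851 promoters of the same length. The letters TGACNNNGC, the core of the antioxidant response element, where N is any base, occurred in none of the 8 and in 12.4% of all. A match is a description of the letters, not of a bound site.

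Among genes outside the cluster, those whose log2 CPM ran most like the Ugt1a6a row over the 31 libraries included Wdfy1 (Pearson r = 0.77), Acsl3 (0.72), Gm1840 (0.70), Tcp11l2 (0.64) and Xpc (0.64), of 11384 genes compared. The libraries fall into the high and low sets given above and differ in depth and time point, and these values are a description with no test. Within 7 days the r of Wdfy1 was 0.77 and within 4 months 0.89, and for Acsl3 it was 0.62 and 0.78. For Gm1840 it was 0.40 and 0.92. Within the 17 high and the 14 low libraries taken apart, r was 0.60 and -0.87 for Wdfy1 and 0.59 and 0.65 for Acsl3, so for Wdfy1 the sign within the low set was opposite to that over all 31. Wdfy1, an endosomal adaptor of Toll-like receptor signalling, and Acsl3, which activates long-chain fatty acids, lie on chromosome 1 at 8.3 and 9.3 Mb from the cluster.

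The 2 genes with the most opposite pattern also lay close by on chromosome 1, and were singled out after their values were seen. Ramp1, a partner of the calcitonin receptor-like receptor, lies 3.0 Mb away and had r = -0.82, with -0.85 within 7 days and -0.87 within 4 months. Gpr55, a lipid receptor, lies 2.1 Mb away and had r = -0.71, but -0.34 within the 17 high and 0.84 within the 14 low libraries. Of the 5 genes with an absolute r of at least 0.7, 4 were within 10 Mb of the cluster, a stretch that held 85 of the 11384 genes compared (0.747%). At an absolute r of at least 0.5 it was 11 of 179 genes, 12.9% of the genes in the stretch and 1.49% of the others.

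Gpr55 was read in 3 ranges, of which the upper 2 lay close together. It was at 1.5 to 5.82 CPM in 11 libraries, at 13 to 24.1 CPM in 6 and at 25.5 to 58.5 CPM in 14, and these 14 were the libraries with few Ugt1a8 reads. In the 7-day libraries the row-specific Ugt1a7c reads were 14.3% to 20.1% of the common reads at the lowest level of Gpr55, 21.6% to 29.1% at the middle and 29% to 35.6% at the highest. At 7 days the lowest and the middle level overlapped in common reads (174 to 289 and 188 to 207 CPM) and in Wdfy1 (30.9 to 42.8 and 26.2 to 33.9 CPM). At 4 months the 2 libraries at the middle level were RAGE null controls 2 and 3, with Ugt1a7c shares of 42.6% and 42.7%, common reads of 176.9 and 167.2 CPM and 30.7 and 28.5 CPM of Wdfy1. The 6 RAGE null libraries at the lowest level had Ugt1a7c shares of 31.5% to 36.1%, common reads of 204 to 283 CPM and 40.9 to 52.3 CPM of Wdfy1. The WT libraries of that time had 59.5% to 66.9%, 103 to 149 CPM and 13.2 to 16 CPM. These ranges did not overlap at 4 months, and the 3 levels were read off the values, with no test.

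**Figure D4:**
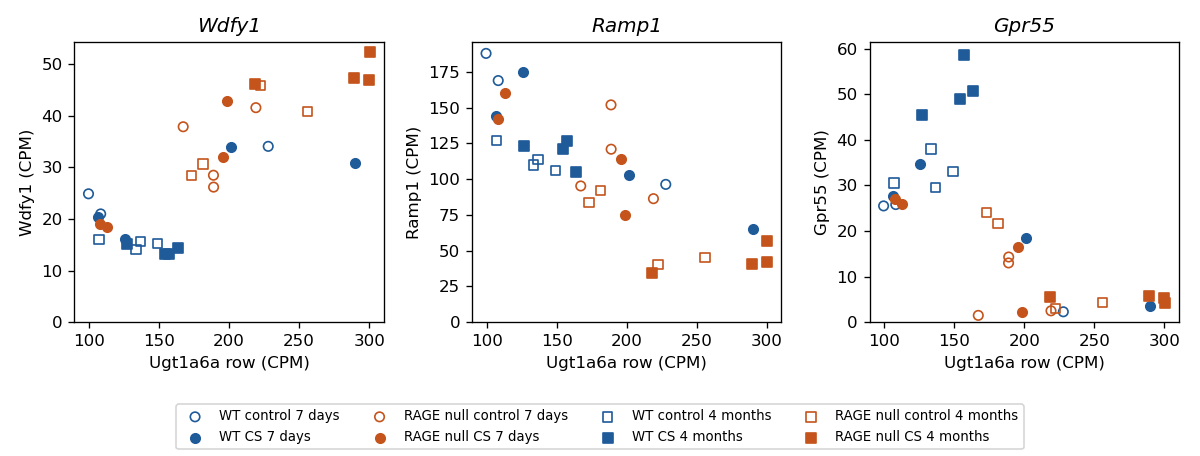
CPM of Wdfy1, Ramp1 and Gpr55 (vertical axes) against CPM of the Ugt1a6a row (horizontal axes) in the 31 libraries (blue, WT; orange, RAGE null; circles, 7 days; squares, 4 months; filled, CS; open, control). Wdfy1 is at 13.2 to 24.9 CPM in the 14 libraries with few Ugt1a8 reads and at 26.2 to 52.3 CPM in the other 17, and Gpr55 is above 25 CPM in those 14 only.

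Other genes of the glucuronidation pathway were called at a share near that of all genes in controls. Of 16 tested genes for sugar donor supply, conjugate export and conjugate cleavage, none was called at 7 days. At 4 months 1 of the 16 was called higher in WT than in RAGE null controls and 2 after CS, where 3.43% and 2.97% of all genes were called higher, with none lower and list medians of 0.04 and 0.15 against -0.004 and -0.006 over all genes. These were Abcc1, an exporter of glutathione and glucuronide conjugates (0.80 in controls, adjusted p = 0.0376, and 1.22 after CS, adjusted p = 0.00782), and Abcc3, an exporter of glucuronides (1.81 after CS, adjusted p = 0.00173). Abcg2, another exporter, rose with 4 months of CS in WT (0.98, adjusted p = 0.00143) and RAGE null mice (0.83, adjusted p = 0.0043). Ugdh, which makes the sugar donor, had group means between 67 and 71.9 CPM. Gusb, the lysosomal enzyme that cleaves glucuronides, had log2 differences of -0.21 to 0.14 over the 8 comparisons between groups and was not called. Of 3 other tested genes of the UGT family none was called in these comparisons.

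NRF2 targets were called higher in WT than in RAGE null mice at 4 months, 10 of 32 in controls and 15 of 32 after CS with none lower, where 3.43% and 2.97% of all genes were called higher, with list medians of 0.65 and 0.66, while the Ugt1a rows were called lower in WT. The list was drawn up with earlier results of these data known. Nqo1, a quinone reductase, differed by 1.51 (adjusted p = 0.032) in controls and 1.90 (adjusted p = 0.0183) after CS. Slc7a11, the cystine importer, differed by 2.79 (adjusted p = 0.00229) and Gclm, the modifier subunit of glutathione synthesis, by 1.27 (adjusted p = 0.0102), both after CS. Gclc, the catalytic subunit, differed by 0.34 in both comparisons, under 1.5-fold. Nfe2l2, which encodes NRF2, differed by 0.30 (adjusted p = 0.072) and 0.28 (adjusted p = 0.126). Ahr, the aryl hydrocarbon receptor, was lower in WT at 4 months (mean ± SD, n = 4 each). In controls it was at 4.41 ± 0.945 CPM against 13.7 ± 7.85 CPM in RAGE null mice (-1.60, adjusted p = 0.0046). After CS it was at 1.08 ± 0.373 against 12.5 ± 2.38 CPM (-3.48, adjusted p = 4.43e-05). Between WT mice with CS and WT controls the fall of Ahr from 4.41 to 1.08 CPM was also called (adjusted p = 0.00386). Of 18 regulators tested Ahr was the only one called between the genotypes at 4 months, a share near that of all genes (6.97% in controls and 4.94% after CS). Of 6 tested targets of the receptor outside the cluster 1 was called in each of these comparisons, Nqo1, and it was higher in WT. The part of Ahr or of NRF2 in the cluster's levels was not tested.

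At 7 days 5 of 33 NRF2 targets rose with CS in WT mice, where 0.983% of all genes were called higher. Among them were Ephx1, an epoxide hydrolase (0.63, adjusted p = 0.00516), and Gstm1, a glutathione transferase (0.59, adjusted p = 0.0488). In RAGE null mice none of the 33 was called, where 0.439% of all genes were called in either direction. The list medians were 0.63 in WT and 0.36 in RAGE null mice, against -0.003 and 0.003 over all genes. Whether the responses differed is given by the test of the difference, which called no gene. Sult2b1, a sulfotransferase, was the 1 gene called of 9 tested in other conjugation pathways over the 12 comparisons (-1.27, WT minus RAGE null, in 7-day controls, adjusted p = 0.0341, where 4.78% of all genes were called).

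The list of AM markers held 16 symbols, among them Chil3 beside Chi3l3 and Siglecf beside Siglec5, which are paired names of the same genes. The libraries held 12 of these 16 markers by symbol. Their summed level, 17900 to 28300 CPM, was carried by Chi3l3, with group means of 12300 to 20100 CPM, while Marco, a scavenger receptor, had group means of 220 to 992 CPM and Siglec5 of 241 to 584 CPM. Between the genotypes at 4 months none of the 12 was called in controls and 1 after CS, where 6.97% and 4.94% of all genes were called. The 1 called was Marco, which was higher in WT (1.55, adjusted p = 0.021).

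Some markers of other cells differed with genotype. In 7-day controls no Ugt1a row and 4.78% of all genes were called. There 7 of 11 type 2 and 8 of 12 type 1 alveolar cell markers were called lower in WT, and so were 8 of 12 general epithelial markers. After 7 days of CS 2.20% of all genes were called, and 2 of 11 airway secretory and 3 of 3 gland markers were called higher in WT. In the same comparison 4 of 11 type 2, 6 of 12 type 1 and 3 of 12 general epithelial markers were called lower in WT. In 4-month controls, where 3.53% of all genes were called lower, so were 7 of 10 tested type 2 markers, 5 of 8 type 1 markers and 7 of 10 general epithelial markers. The median type 2 difference was -3.48, and Sftpc, a surfactant protein gene, was at 1.45 to 2.47 CPM in WT and 3.29 to 100 CPM in RAGE null libraries. None of 11 airway secretory markers was called, with a median of -0.56.

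After 4 months of CS, where 1.96% of all genes were called lower, 0 of 10 type 2, 2 of 8 type 1, 2 of 10 general epithelial and 0 of 11 airway secretory markers were called lower in WT, with medians of -1.61, -1.24, -1.38 and -0.26. The 4 called were Clic5 (-2.87, adjusted p = 0.0152), Hopx (-1.10, adjusted p = 0.0313), Epcam (-2.03, adjusted p = 0.000574) and Cldn18 (-2.84, adjusted p = 0.0247). Sftpc was at 1.87 to 2.35 CPM in WT and 5.61 to 10.1 CPM in RAGE null libraries, without overlap.

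Among markers of blood cells, 2 of 6 for monocytes were called lower in WT in 4-month controls and 1 after CS. Of all genes 3.53% and 1.96% were called lower in these comparisons. The monocyte markers called were Fn1, fibronectin (-0.85, adjusted p = 0.0111, and -0.67, adjusted p = 0.0472), and in controls Vcan, a matrix proteoglycan (-0.96, adjusted p = 0.00723). Of 5 neutrophil markers 1 was called lower in each, Csf3r, a growth factor receptor (-1.03, adjusted p = 0.00148, and -1.34, adjusted p = 0.000225). Red cell genes were called lower in WT controls in 3 of 3 tested, and in none after CS, where their median difference was 4.71. In controls their sums were 0.312 to 5.09 CPM in WT and 2.24 to 250 CPM in RAGE null libraries. The RAGE null mean was 66.8 CPM (n = 4), so 1 library held most of these reads. Of 4 lymphocyte markers 1 was called in controls, higher in WT, and none after CS. Of 3 ciliated cell markers 1 was called lower in WT in each. The marker genes named here were singled out after their values were seen. In 7-day libraries the summed type 2 levels were 232 to 560 CPM in the 9 with many Ugt1a8 reads and 227 to 416 CPM in the 6 with few. Summed neutrophil levels were 117 to 2970 and 125 to 171 CPM in these sets, and monocyte levels 667 to 1570 and 604 to 1030 CPM. Summed gland marker levels were 0.69 to 3400 and 0.685 to 13.2 CPM. The highest neutrophil and gland sums were both in the WT group with CS. The ranges of both sets overlapped in every marker list. The part of these markers in the cluster's levels was not tested.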

How the data were processed

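AM were lavaged from the mice, and total RNA was made into unstranded oligo dT libraries and sequenced from 1 end. According to the methods and the labels, the authors aligned reads to mm10 with Novoalign, removed reads with more than 1 location and deposited raw counts per gene, which are used here. FPKM values deposited beside them were left aside. So were log2 ratio and FDR columns, which hold the authors' own comparisons. Which annotation release was counted is not given in the sources used here.

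Counts were fitted with edgeR 4.0.16 (R 4.3.3; filterByExpr with a minimum count of 10 and minimum total of 15, TMM, quasi-likelihood test, two-sided), each time point alone and all 31 libraries for the difference of CS responses. Calls needed a Benjamini-Hochberg adjusted p under 0.05 over all genes tested and a change of at least 1.5-fold. Reads common to the 8 rows were taken as the lowest member count in each library. For the row-specific reads, the 8 rows were replaced by the common and the remaining counts and all genes were refitted. Row-specific Ugt1a7c reads were added to this after their values were seen. The full Ugt1a7c row, which holds the common reads as well, stayed in the fit. DESeq2 1.42.0 and the settings of the closing section were alternatives, and the fit was checked on simulated data. Tables and exact tests used Python 3.11.15, pandas 2.3.3 and scipy 1.17.1, and figures matplotlib 3.10.9.

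Named genes were the 8 members, list genes called in a comparison described, Nqo1, Gclc, Gusb, Ugdh, Ahr and Nfe2l2 whatever their values, and the 6 genes most correlated with the highest member row (log2 CPM, prior count of 2), of which 1 is not reported here. The members and all lists were chosen with earlier results of these data known. Each library is 1 mouse by the study's methods.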

Additional observations from a re-analysis of the deposited data

Results flagged for a closer look

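In RAGE null mice with CS at 4 months, the Ugt1a6a row of replicate 0 stood at 218 CPM, while the other 3 libraries stood at 289, 300 and 300 CPM. The gap to its neighbour was 0.867 of the range of the group, above the 95% critical value of Dixon's test for 4 libraries. Over 6 values 41 groups of 4 libraries were examined, and chance alone marks about 1 in 20 groups. Without this library the call of WT against RAGE null mice after CS was kept.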

How the results depend on the processing

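With only the adjusted p and no fold threshold, the CS difference in RAGE null mice at 4 months (0.41, adjusted p = 0.0454) was called, for all 8 rows. No other comparison of the Ugt1a6a row changed its call or direction under DESeq2, DESeq2 size factors, other count filters, fits of the compared groups alone or the common reads in its place. A filter of 20 counts in every library left no row-specific reads of Ugt1a8 or Ugt1a9, and fits of the compared groups alone left none for CS in WT mice at 4 months. A difference of CS responses within a time point uses all 4 groups in any case. With DESeq2 size factors the difference of CS responses in WT mice for row-specific Ugt1a8 reads was -0.00 instead of 0.01.

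The replicate numbers did not pair the libraries: residuals of same-numbered libraries had a mean correlation of 0.00572 at 7 days and 0.0290 at 4 months. With the replicate block the Ugt1a6a row differed by -0.66 in 4-month controls and -0.88 after CS. The block turned the 7-day difference of CS responses for row-specific Ugt1a6a reads from -0.09 to 0.02, and their 4-month difference after CS (-0.85, adjusted p = 0.0587) was no longer called.

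Leaving out 1 library at a time, the Ugt1a6a row ranged from -0.74 to -0.55 for WT against RAGE null controls at 4 months (called in 14 of 16 fits) and from -0.98 to -0.81 after CS (16 of 16). It ranged from -0.01 to 0.80 for CS in WT mice at 7 days, from -0.09 to 0.42 for WT against RAGE null mice after CS at 7 days, and from -0.59 to 0.20 for the difference of CS responses between the times in WT mice, which turned without WT control replicate 0 or 2 or WT CS replicate 3 at 7 days. The common reads ranged from -0.00 to 0.80, -0.09 to 0.42 and -0.60 to 0.20 in the same comparisons. The direction of row-specific reads turned in the comparisons that follow. Where a group holds 0 or a few counts, as for Ugt1a8 and Ugt1a9 in WT mice at 4 months and in 4 of 7 WT libraries at 7 days, the fitted values depend on the prior count and neither they nor their sign are a measurement. For CS in WT mice at 7 days the range was -0.55 to 7.46 for Ugt1a8, -0.64 to 6.13 for Ugt1a9 and -0.51 to 0.48 for Ugt1a6a. For CS in RAGE null mice at 7 days it was -0.32 to 0.14 for Ugt1a6a and -0.18 to 0.12 for Ugt1a7c. For WT against RAGE null at 7 days it was -0.41 to 0.57 for Ugt1a6a in controls, and after CS -1.01 to 1.44 for Ugt1a8, -1.31 to 0.41 for Ugt1a9 and -0.02 to 0.39 for Ugt1a6a. The difference of CS responses at 7 days ranged from -0.38 to 0.61 for Ugt1a6a. At 4 months the range was 0.00 to 1.97 for Ugt1a9 and -0.07 to 0.29 for Ugt1a6a with CS in WT mice, -0.13 to 0.07 for Ugt1a7c after CS between genotypes, and -0.47 to 2.70 for Ugt1a8 and -0.64 to 1.34 for Ugt1a9 in the difference of CS responses. Between the times in WT mice it was -6.94 to 2.84 for Ugt1a8, -4.62 to 2.22 for Ugt1a9 and -0.28 to 0.71 for Ugt1a6a.

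Counts of all genes called depended on the setting. At 7 days CS in WT mice gave 299 genes (189 to 847 over the other settings), CS in RAGE null mice 58 (27 to 119), the control genotypes 632 (303 to 1307), the genotypes after CS 291 (155 to 588) and the difference of responses 0 (0 to 114, the highest with DESeq2). At 4 months these were 739 (406 to 1863), 949 (582 to 2606), 909 (554 to 2777), 644 (400 to 1414) and 5 (4 to 65). Between the times they were 105 (37 to 288) in WT and 250 (110 to 371) in RAGE null mice. Leaving out 1 library gave 46 to 480 for CS in WT mice and 15 to 194 for CS in RAGE null mice at 7 days, 241 to 830 for the control genotypes at 7 days, 0 to 119 and 3 to 74 for the differences of responses at 7 days and 4 months, 647 to 1481 for the control genotypes at 4 months, and 0 to 300 in WT and 92 to 469 in RAGE null mice between the times. Row-specific reads of 0 to 4 counts in a library limit any statement on a first exon to its presence or near absence at this depth.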
